A study of Homo sapiens with 8 samples.

Results

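The genes described here are the Wnt ligands, their receptors and antagonists, and a few transducers and feedback inhibitors of the pathway. They were picked by gene symbol, with earlier results of these data known, and 62 of the 47591 genes in the table had such a symbol. Of these, 19 are WNT ligands, 10 frizzled receptors, 5 other receptors or co-receptors (LRP5, LRP6, ROR1, ROR2, RYK), 9 belong to the R-spondin branch (RSPO1 to RSPO4, LGR4 to LGR6, RNF43, ZNRF3), 10 are secreted antagonists (SFRP, DKK, FRZB and WIF1 genes), 4 are the intracellular inhibitors AXIN1, AXIN2, NKD1 and NKD2, 4 are the transcription factors TCF7, TCF7L1, TCF7L2 and LEF1, and 1 is PORCN. Their transcripts were counted by sequencing polyadenylated RNA of SH-SY5Y, a human neuroblastoma (NB) cell line. The question was what differs in a line in which the splicing factor gene PRPF40B was edited. The edited line, G2, was made with CRISPR/Cas9 and a PRPF40B guide and has 3 libraries. The scramble line, SCR, received the same machinery but a control guide and also has 3, and WT, never edited, has 2. All 3 lines share the SH-SY5Y background. Edited cells were selected with puromycin and grown from individual colonies, so that the edit and the colony from which G2 came cannot be told apart. By the study's methods G2 and SCR were also kept in puromycin, which is not stated for WT, so in comparisons with WT the line and the drug cannot be told apart. The labels call the libraries of a line biological replicates without naming separate cultures, and p-values measure the spread between these libraries.

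Wnt proteins are lipid-modified by the acyltransferase PORCN, leave the cell with the carrier WLS and bind a frizzled receptor on the receiving cell. In the canonical branch, frizzled and LRP5 or LRP6 together stop the AXIN and APC destruction complex from degrading beta-catenin, which then acts in the nucleus with TCF and LEF factors. In the other branches, ligands such as WNT5A and WNT11 act through frizzled, ROR and RYK receptors on cell polarity, the cytoskeleton and calcium. R-spondins bound to LGR4, LGR5 or LGR6 keep the ubiquitin ligases RNF43 and ZNRF3 from removing frizzled receptors. DKK1, DKK2 and DKK4 bind LRP5 and LRP6, whereas SFRP proteins, FRZB and WIF1 bind the ligands themselves. AXIN2, NKD1 and LGR5 are widely used target genes of the canonical branch. The pathway is known for its role in the formation and migration of the neural crest, the embryonic cells from which NB arises.

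Promoter sequences are shown for 3 genes with very different patterns in the 3 lines. DKK1 was the most abundant of the 62 genes per length, FZD4 was a low receptor transcript that rose in G2 against both controls, and RSPO4 rose in G2 against WT but fell against SCR. The sequences are the 120 bases before the RefSeq transcription start (GRCh38.p14), in the direction of the gene, 5′ to 3′. They lie at chr10:52314161-52314280 (+ strand) for DKK1, chr11:86955396-86955515 (- strand) for FZD4 and chr20:1002312-1002431 (- strand) for RSPO4. By the gene positions of the table, the last bases of the DKK1 and FZD4 windows fall inside the gene and the RSPO4 window is wholly upstream. The capitals mark the TATA box TATAAA, the CCAAT box (CCAAT or ATTGG) and the GC box (GGGCGG or CCGCCC).
DKK1: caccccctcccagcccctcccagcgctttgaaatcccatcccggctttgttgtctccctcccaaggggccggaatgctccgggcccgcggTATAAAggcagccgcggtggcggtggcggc
FZD4: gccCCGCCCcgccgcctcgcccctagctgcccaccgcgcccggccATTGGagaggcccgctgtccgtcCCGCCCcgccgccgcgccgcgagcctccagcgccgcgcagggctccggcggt
RSPO4: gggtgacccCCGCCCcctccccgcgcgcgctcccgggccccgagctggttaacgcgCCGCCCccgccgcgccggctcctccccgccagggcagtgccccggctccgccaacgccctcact
In these windows DKK1 held a TATA box at position -30 from its start, FZD4 a CCAAT box and GC boxes, and RSPO4 GC boxes alone. RefSeq promoters of 300 bases (250 before to 50 after the start) were matched for 44 of the 62 genes, with 54 promoters in all. DKK2, FZD7, LGR5, AXIN2 and NKD1 had no entry. TATAAA, read on the gene's strand, was in 2 of the 54 promoters (DKK1 and FZD8) and in 7.33% of all 35116 promoters. The GC box, read on both strands, was in 37 of the 54 and in 45.0% of all promoters, and the CCAAT box in 21 of the 54 and in 34.6%. The TCF/LEF motif CTTTGAT or ATCAAAG was in 0 of the 54 promoters and in 2.62% of all promoters. A GC box and a CCAAT box can share bases at their ends, and both were then counted. A match is a description of the letters and not a binding site.

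The deposited values are read counts per gene divided by a size factor for each library, called normalized counts below. The recovered totals before normalization ran from 59804395 to 81080747 per library. PRPF40B itself was at 866 ± 44.5 (SD, n = 3) normalized counts in the G2 libraries, 1676 ± 8.79 (SD, n = 3) in those of SCR and 1820 ± 215 (SD, n = 2) in those of WT. G2 lay below both controls, and G2/SCR was -0.95 on the log2 scale (adjusted p = 7.4e-07, limma). By the calls defined below, 15.1% of all tested genes rose and 11.8% fell in G2/SCR, and these shares stand beside each marker list here. Of 17 adrenergic neuroblast markers tested, 2 rose and 12 fell in G2/SCR. Their summed level was 327429 to 333190 in G2, 417137 to 426601 in SCR and 385621 to 400288 in WT. HAND2 and GATA3, which mark NB cells of the sympathetic lineage, had means of at least 33678 and 14129 in every line, while the TH mean was at most 16.9. Of 14 mesenchymal markers 11 rose and 0 fell, and their summed level was 246188 to 252991 in G2, 114379 to 121723 in SCR and 83934 to 95655 in WT. Of 8 fibroblast markers 5 rose and 1 fell, with sums of 102746 to 104609, 31834 to 33025 and 37544 to 41050.0. SOX10 and PECAM1, markers of Schwann and endothelial cells, were at 0 in every library, but other genes of their lists were detected. The 9 Schwann cell markers summed to 8522 to 8945 in G2, 6116 to 7128 in SCR and 6435 to 6626 in WT. Of 4 tested, 1 rose and 1 fell in G2/SCR. The 8 endothelial markers summed to 36.1 to 65.9, 25.3 to 32.7 and 0 to 41.7, and the 1 tested rose in G2/SCR. The part that these shifts in cell state have in the Wnt results was not tested, and in such bulk samples a change in the share of cells of a kind cannot be told apart from a change in RNA per cell.

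Across the Wnt genes, G2 had more transcript than SCR of several frizzled receptors and DKK antagonists and of LGR5. It had less of the feedback inhibitors NKD1, NKD2 and AXIN2, and none of LRP5, LRP6, ROR1, ROR2 and RYK was called. The rises of FZD1 and DKK3 and the fall of NKD2 were not called in G2/WT. A gene was called when its fold change was at least 1.5 at an unadjusted p of at most 0.05 in limma on log2(normalized count + 1), and adjusted p-values are Benjamini-Hochberg values over all 18947 genes with a mean of at least 10. Of the 62 Wnt genes, 40 passed this minimum and 22 did not. In G2/SCR 13 of the 40 rose (32.5%), beside 15.1% of all tested genes, and 6 fell (15%), beside 11.8%. In G2/WT 13 rose, beside 17.7% of all tested genes, and 3 fell (7.5%), beside 12.2%. In SCR/WT 11 rose (27.5%), beside 10.7%, and 2 fell (5%), beside 5.63%, so that the controls also differed from each other. The median log2 fold change over the 40 was 0.17 in G2/SCR, 0.16 in G2/WT and 0.15 in SCR/WT, and over all tested genes it was -0.01, 0.00 and 0.01. The 3 comparisons share libraries and are not independent. Genes such as WNT5A, WNT11 and WNT16 passed the minimum mainly through 1 line, so the minimum itself favoured a difference between lines for them. All G2 libraries lay above all 5 control libraries for 14 of the 40 genes (35%), beside 22.8% of all tested genes, and below them for 5 (12.5%), beside 19.7%. Scaling every library to the same total moved the median of all tested genes to -0.10, 0.19 and 0.29 in the 3 comparisons. With it, 75.8% of all calls in G2/WT were rises instead of 59.3%, and 90.7% in SCR/WT instead of 65.6%. In G2/SCR the share of rises was 47.4% instead of 56.2%. Levels in all 3 comparisons, and most of all those against WT, are thus relative to the scaling of the authors.

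**Figure D1:**
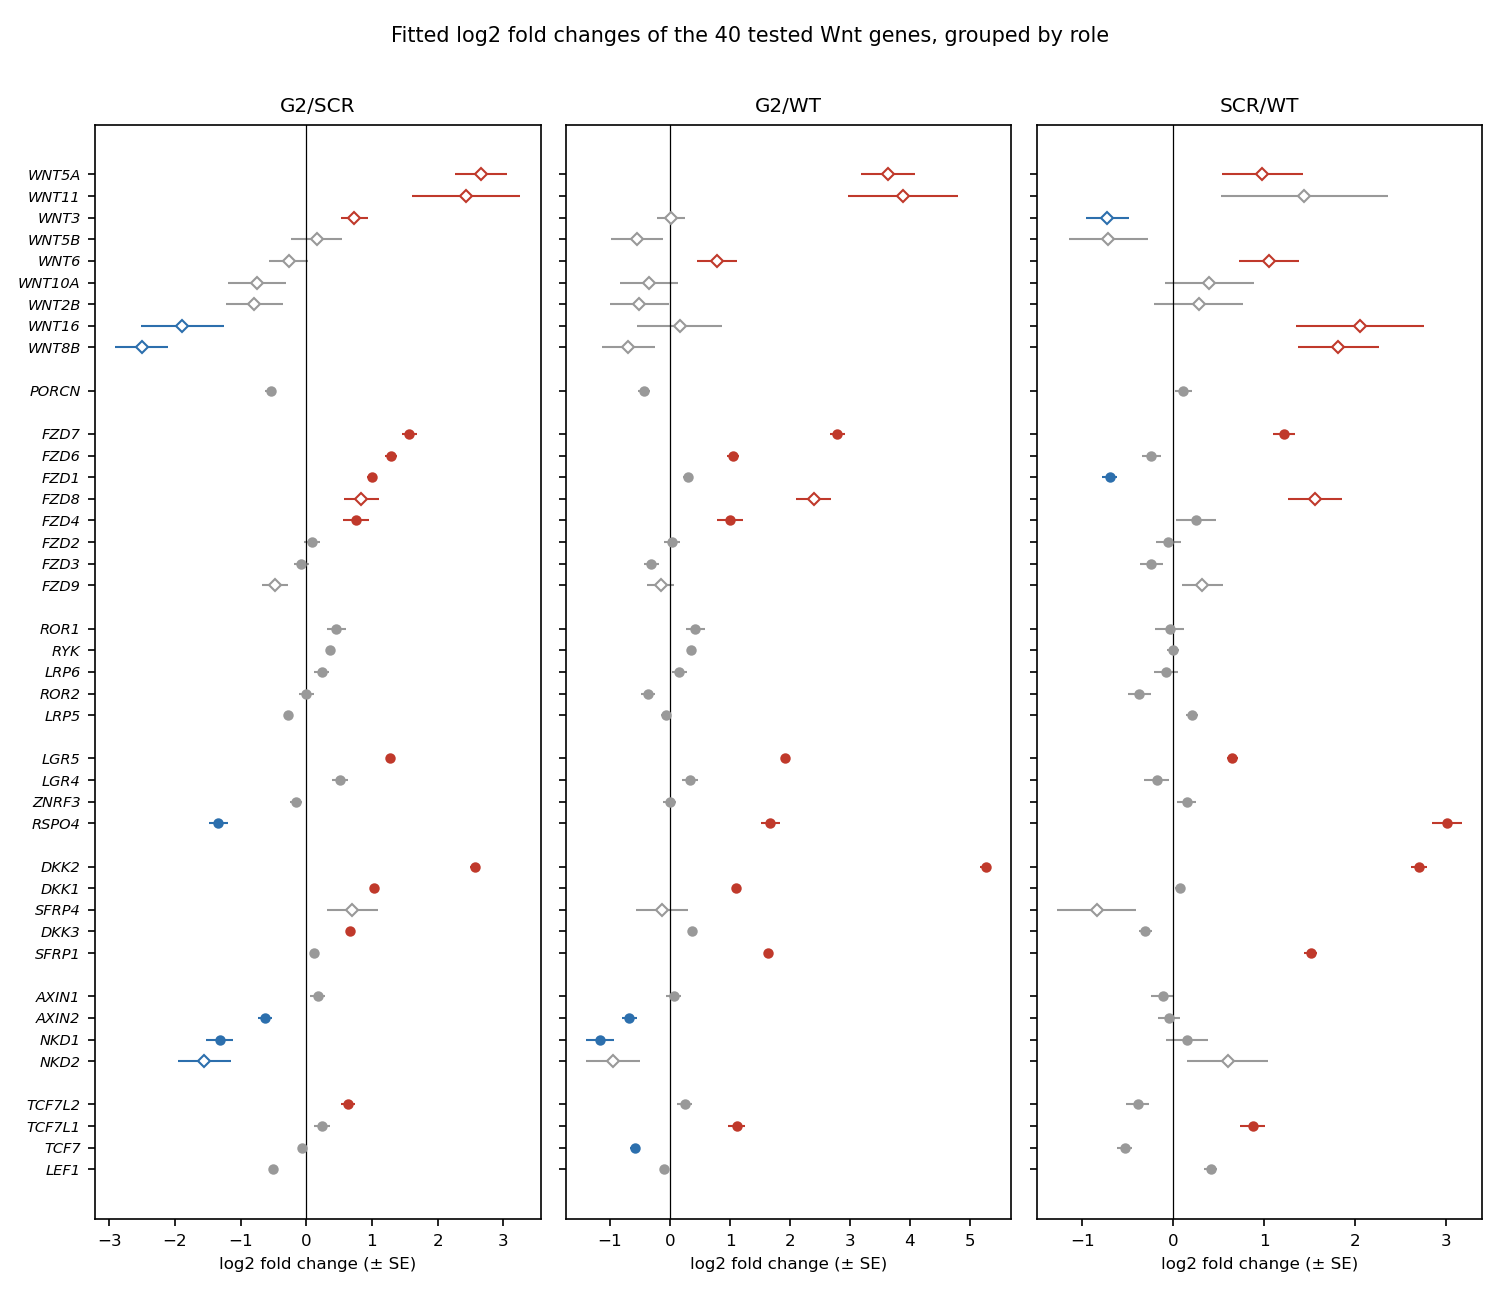
Fitted log2 fold change (horizontal axis, ± SE) of the 40 tested Wnt genes, grouped by role, in G2/SCR, G2/WT and SCR/WT. Red marks genes called higher, blue genes called lower and grey genes not called, and open diamonds are genes with a mean under 100 normalized counts in every line. In G2/SCR 13 points are red and 6 are blue, and the NKD and AXIN2 points lie on the opposite side of 0 from most frizzled and DKK points.

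Frizzled proteins are the receptors that bind Wnt directly. Of the 10 genes, 8 were tested, 5 rose in G2/SCR and 4 of these (FZD4, FZD6, FZD7, FZD8) also rose in G2/WT. Of all tested genes, 15.1% and 17.7% were called higher in these comparisons. In both, 0 of the 8 fell, beside 11.8% and 12.2% of all tested genes, so the lack of falls among 8 genes hardly sets them apart. FZD7 (chr2:202033855-202038441) had 5357, 4738 and 6125 normalized counts in G2, 1768, 1831 and 1826 in SCR, and 672 and 893 in WT. The 3 lines did not overlap, with G2 highest and WT lowest. On the log2 scale FZD7 rose by 1.57 (SE 0.108, adjusted p = 1.78e-07) in G2/SCR and by 2.79 (SE 0.121, adjusted p = 3.28e-09) in G2/WT. It also rose by 1.22 (SE 0.121, adjusted p = 1.8e-05) in SCR/WT. FZD6 (chr8:103298439-103332866), a receptor best known from planar polarity, had 1124, 1072 and 1078 in G2, 439, 436 and 457 in SCR, and 472 and 583 in WT. Here both controls lay together and all of G2 lay above them. FZD6 rose by 1.30 (SE 0.0911, adjusted p = 2.14e-07) on the log2 scale in G2/SCR and by 1.06 (SE 0.102, adjusted p = 3.75e-06) in G2/WT, and its SCR/WT value of -0.24 was not called.

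FZD4 (chr11:86945679-86955398), the receptor for Norrin as well as Wnt, was at 312, 284 and 276 in G2, 227, 168 and 132 in SCR, and 120.4 and 172 in WT. Every G2 library was above every control library, although the SCR libraries were widely spread. It rose by 0.76 (SE 0.194, adjusted p = 0.00644) in G2/SCR and by 1.01 (SE 0.217, adjusted p = 0.00198) in G2/WT. Without SCR replicate 1 the G2/SCR value rose to 0.96, and without SCR replicate 3 it was 0.57, under the fold required. FZD1 (chr7:91264364-91271326) had 2299.6, 2401 and 2663 in G2, 1278, 1173 and 1229.6 in SCR, and 1922 and 2052 in WT. The low line here was SCR. FZD1 rose by 1.00 (SE 0.0723, adjusted p = 2.76e-07) in G2/SCR, fell by 0.70 (SE 0.0808, adjusted p = 5.85e-05) in SCR/WT, and its 0.30 in G2/WT was under the fold required. FZD8, a gene of low level whose entry in the table also names the microRNA gene MIR4683, had 98.8, 104 and 75.2 in G2, 40.8 to 63.8 in SCR, and 19.9 and 13.9 in WT. Its rise was 0.83 (SE 0.267, adjusted p = 0.0211) in G2/SCR and 2.40 (SE 0.298, adjusted p = 3.16e-05) in G2/WT, and it was 1.56 in SCR/WT. The other tested receptors were not called in any comparison. FZD2 had means of 1519, 1426 and 1489 in G2, SCR and WT, FZD3 of 404, 424 and 501, and FZD9 of 62.0, 86.5 and 69.4. FZD4, FZD6 and FZD8 have exons that overlap a gene on the opposite strand in GENCODE 44, among them PRSS23 for FZD4 and BAALC-AS1 for FZD6, and the strand setting of the counting is not given in the sources used here.

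Per kilobase of exon, frizzled transcripts together reached 2324 ± 215 (SD, n = 3) normalized counts in the G2 libraries, 1163 ± 34.6 (SD, n = 3) in those of SCR and 1073 ± 8.83 (SD, n = 2) in those of WT. The make-up of this sum differed between the lines. FZD7 made up 50.6% ± 2.33 (SD, n = 3) of it in the G2 libraries, 33.9% ± 1.62 (SD, n = 3) in those of SCR and 15.9% ± 3.31 (SD, n = 2) in those of WT. FZD2 made up 17.3%, 32.4% and 36.7%, and FZD1 15.3%, 15.3% and 26.9%. FZD7 was first in G2, where its lowest share was 47.9%, and FZD2 was first in WT, while in SCR the shares of FZD7 (32.2% to 35.4%) and FZD2 (30.2% to 34.1%) overlapped. Among 15339 genes ranked by level per kilobase, FZD7 was 2363rd in G2, 5236th in SCR and 7906th in WT.

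**Figure D2:**
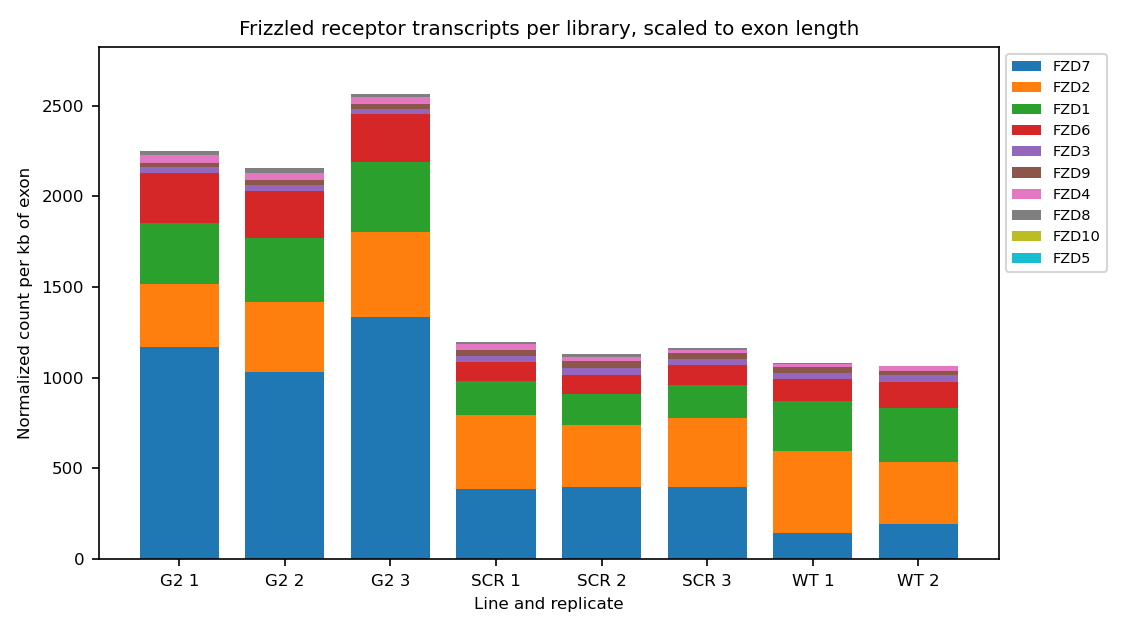
Normalized counts per kilobase of exon of the frizzled genes, stacked by gene, in each library (line and replicate on the horizontal axis). The G2 bars reach 2155 to 2566 and the control bars 1066 to 1198, and FZD7 (blue) takes the largest share in G2.

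The co-receptors LRP5 and LRP6 and the receptors ROR1, ROR2 and RYK are the partners of frizzled, and none of the 5 was called in any of the 3 comparisons. Most tested genes were not called either. Of 18947, 5088 were called in G2/SCR, 5657 in G2/WT and 3097 in SCR/WT, so no call among 5 genes hardly sets them apart. In G2/SCR their log2 fold changes ran from -0.28 (LRP5) to 0.46 (ROR1), and in G2/WT from -0.37 (ROR2) to 0.42 (ROR1). RYK, a receptor that binds WNT5A, had no overlap between G2 and the controls, with 3997, 4083 and 3792 in G2, 3097, 3152 and 3008 in SCR, and 2999.8 and 3174 in WT. The SCR libraries lay within the range of WT. Its value of 0.36 (SE 0.0566, adjusted p = 0.000227) in G2/SCR and 0.36 (SE 0.0633, adjusted p = 0.000497) in G2/WT was well measured but below the fold required. ROR1 was at 325, 308 and 292 in G2 against 202 to 251 in SCR and 196 and 269 in WT, so its G2 libraries were also all above the controls. This held for 2 of the 5 genes, RYK and ROR1, beside 22.8% of all tested genes. LRP5, with means of 2752, 3350.0 and 2896, and LRP6, with means of 1765, 1499 and 1613, overlapped between G2 and the controls.

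In the R-spondin branch the receptor LGR5 rose and the ligand RSPO4 went opposite ways against the 2 controls. LGR5 (chr12:71439769-71586310), a stem cell marker in several epithelia, had 20754, 20174 and 19434 normalized counts in G2, 8502, 8400.4 and 8087 in SCR, and 5063 and 5571 in WT. Replicates lay close together and the 3 lines were separate. LGR5 rose by 1.27 (SE 0.0542, adjusted p = 2.53e-09) on the log2 scale in G2/SCR, by 1.92 (SE 0.0606, adjusted p = 2.09e-10) in G2/WT and by 0.65 (SE 0.0606, adjusted p = 1.21e-05) in SCR/WT. Without WT replicate 1, SCR/WT was 0.58 and not called. LGR5 made up 97.9% of the LGR transcripts per kilobase in G2, 96.6% in SCR and 93.9% in WT. LGR4 was at 512 ± 48.3 (SD, n = 3) in the G2 libraries, 359 ± 53.1 (SD, n = 3) in those of SCR and 405 ± 26.7 (SD, n = 2) in those of WT, and its G2/SCR value of 0.52 (SE 0.123, adjusted p = 0.00414) stayed under the fold required. LGR4 and LGR5 also overlap genes on the opposite strand.

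RSPO4 (chr20:958452-1002311), the R-spondin known from nail development, had 122, 137 and 146 in G2, 366, 348 and 314 in SCR, and 44.7 and 38.7 in WT. SCR was the high line and WT the low one, with G2 between and no overlap. RSPO4 fell by 1.34 (SE 0.144, adjusted p = 9.43e-06) in G2/SCR, rose by 1.67 (SE 0.161, adjusted p = 3.73e-06) in G2/WT and by 3.01 (SE 0.161, adjusted p = 1.76e-07) in SCR/WT. The difference between the 2 control lines was thus larger than either difference of G2 from them. The ubiquitin ligase gene ZNRF3 was level at 316, 352 and 317, and RNF43, RSPO1, RSPO2, RSPO3 and LGR6 were under the minimum, with no value above 11.9.

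The secreted antagonists held the most abundant transcript of the set. DKK1 (chr10:52314252-52317657) had 137522, 134032 and 132137 normalized counts in G2, 64733, 66944 and 65629 in SCR, and 64567 and 60533 in WT. The 5 control libraries lay together and G2 was at 2.05 times SCR and 2.15 times WT. On the log2 scale DKK1 rose by 1.03 (SE 0.0475, adjusted p = 4.79e-09) in G2/SCR and by 1.11 (SE 0.0531, adjusted p = 7.76e-09) in G2/WT, with 0.07 in SCR/WT. Per kilobase of exon it was the 26th most abundant of 15339 genes in G2, 71st in SCR and 109th in WT. DKK2 (chr4:106921802-107036313), which acts on the same co-receptors, had 16103, 15227 and 15236 in G2, 2445, 2664 and 2726 in SCR, and 361 and 447 in WT. It therefore formed 3 steps, from WT over SCR to G2. G2 was at 5.94 times SCR and 38.4 times WT, and SCR at 6.46 times WT, with log2 fold changes of 2.57 (SE 0.0792, adjusted p = 1.8e-10), 5.27 (SE 0.0885, adjusted p = 1.14e-12) and 2.696 (SE 0.0885, adjusted p = 3.45e-09). The rank of DKK2 per kilobase was 810 in G2, 3923 in SCR and 9484 in WT. DKK2 and DKK1 lie on different chromosomes, and DKK2 took 5.56% of the DKK transcripts per kilobase in G2 and 1.98% in SCR, the rest being nearly all DKK1.

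DKK3 (chr11:11963036-12009773), a relative of the DKK family with little activity on LRP6, had 3129, 3108 and 3232 in G2, 1983, 1905 and 2087 in SCR, and 2390.2 and 2529 in WT. G2 was above both controls and SCR was lowest. DKK3 rose by 0.66 (SE 0.06, adjusted p = 1.99e-06) in G2/SCR, and its 0.36 (SE 0.0671, adjusted p = 0.000729) in G2/WT was under the fold required. With libraries scaled to the same total the G2/SCR value was 0.57 and no longer called. SFRP1 (chr8:41261960-41309479) had 3242, 3394 and 3224 in G2, 2939, 3236 and 2884 in SCR, and 1028 and 1084 in WT. G2 and SCR overlapped and WT stood apart from both. SFRP1 rose by 1.64 (SE 0.0717, adjusted p = 3.61e-09) in G2/WT and by 1.51 (SE 0.0717, adjusted p = 6.68e-08) in SCR/WT, with 0.12 (adjusted p = 0.132) in G2/SCR. SFRP4 was between 11.3 and 40.8 in the 8 libraries and was not called. WIF1, under the minimum and not tested, had 21.6, 16.4 and 27.9 in G2 and 0 in all 5 control libraries. DKK1 and DKK3 overlap PRKG1-AS1 and USP47 on the opposite strand.

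**Figure D3:**
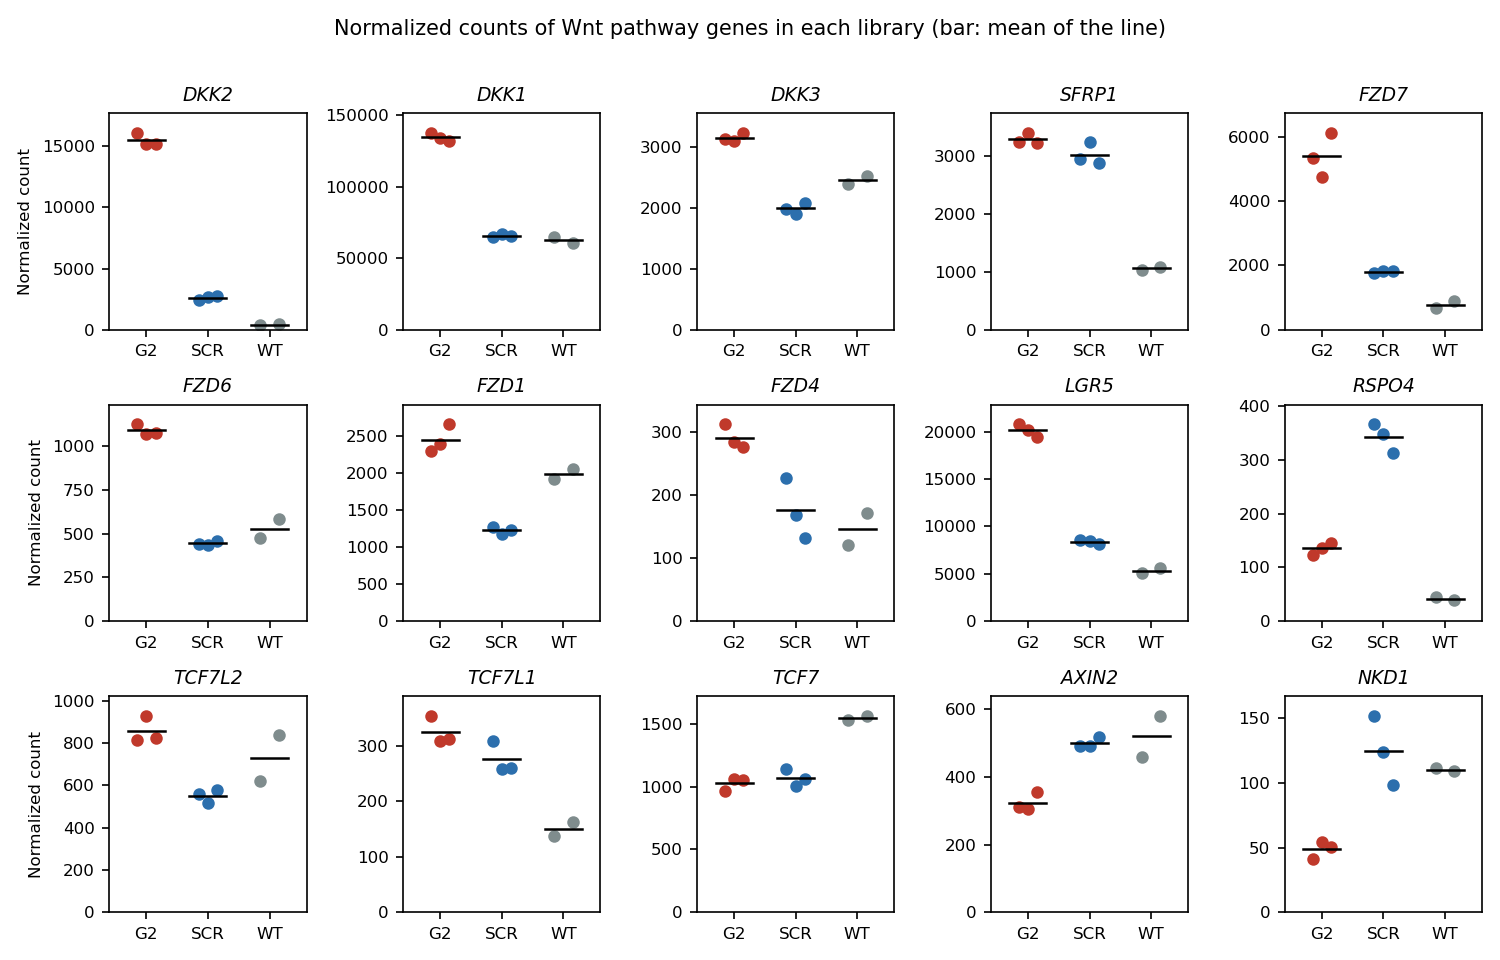
Normalized count (vertical axis, from 0) of each library for the 15 Wnt genes with a mean of at least 100 in a line that were called in G2/SCR or G2/WT, with a bar at the mean of each line. DKK1 and FZD6 have both controls together below G2, DKK2, FZD7 and LGR5 form 3 steps, SFRP1 and TCF7L1 separate WT from both other lines, and RSPO4 is highest in SCR.

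The ligands were low in all lines. None reached a mean of 100 in any line, and per kilobase all 19 summed to 117 ± 15.2 (SD, n = 3) in the G2 libraries, 122 ± 15 (SD, n = 3) in those of SCR and 79.5 ± 27.8 (SD, n = 2) in those of WT, so the total was similar in G2 and SCR. Of 9 tested ligands 3 rose (33.3%) and 2 fell (22.2%) in G2/SCR, beside 15.1% and 11.8% of all tested genes. Their median log2 fold change was -0.26. The called WNT5A and WNT11 passed the minimum mainly through G2 and WNT16 mainly through SCR. For these 3 the minimum itself favoured a difference between lines. WNT5A, the main ligand of the non-canonical branch, had 80.0, 84.3 and 90.3 in G2, 13.3, 7.51 and 19.6 in SCR, and 4.97 and 6.95 in WT. All G2 libraries were far above the controls, and no WT library passed the floor of 9 recovered counts, about 3 fragments. WNT5A was 6.30 times higher in G2 than in SCR (log2 fold change 2.66, SE 0.4, adjusted p = 0.000157, limma). Against WT, which was at the floor, it was at least 8.44-fold higher. WNT11, a ligand of the same branch, had 41.4, 17.5 and 44.1 in G2, 2.04, 12.2 and 4.53 in SCR, and 0 and 3.97 in WT. It was 5.48 times higher in G2 than in SCR (log2 fold change 2.44, SE 0.822, adjusted p = 0.0273), and the bound against WT was at least 3.41-fold higher. The G2/SCR call was lost without G2 replicate 1 or without G2 replicate 3, with values of 1.94 to 3.00 over all left-out libraries. WNT11 overlaps an unnamed gene on the opposite strand.

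WNT3 had 90.3, 84.3 and 106 in G2, 43.9, 67.6 and 58.2 in SCR, and 96.8 and 88.4 in WT. G2 and WT overlapped, and SCR alone was low, with 0.73 (SE 0.209, adjusted p = 0.0117) in G2/SCR and -0.72 (SE 0.233, adjusted p = 0.031) in SCR/WT. Without SCR replicate 1 neither was called, at 0.56 and -0.55, and SCR/WT was not called without WT replicate 1 either. WNT8B went the other way, with 12.2, 7.66 and 11.8 in G2, 62.3, 58.2 and 71.0 in SCR, and 27.3 and 10.9 in WT. It fell by 2.51 (SE 0.399, adjusted p = 0.000237) in G2/SCR and rose by 1.81 (SE 0.446, adjusted p = 0.00782) in SCR/WT, and its -0.69 in G2/WT was not called. The SCR/WT value was 1.19 without WT replicate 2 and 2.44 without WT replicate 1. WNT16 was at the floor in G2 and in WT and had 26.5, 30 and 18.1 in SCR, at least 2.67-fold higher than in G2 and at least 2.48-fold higher than the WT line. The latter call was lost without WT replicate 1. WNT6 had 46.1, 49.3 and 86.0 in G2, 55.1, 75.1 and 82.4 in SCR, and 41.0 and 26.8 in WT, and its rise in G2/WT (0.79, adjusted p = 0.0642) did not pass at the adjusted p and was lost without G2 replicate 3 or WT replicate 2. WNT6 also rose in SCR/WT (1.05, SE 0.332, adjusted p = 0.0276), and this was lost without WT replicate 2. WNT5B, WNT10A and WNT2B were between 9.85 and 89.4 in all libraries and not called. PORCN, which acylates the ligands, had 391, 408 and 407 in G2, 599, 561 and 600.1 in SCR, and 566 and 521 in WT. All G2 libraries were below the controls, and its -0.54 (SE 0.0847, adjusted p = 0.000205) in G2/SCR and -0.43 (SE 0.0946, adjusted p = 0.00221) in G2/WT stayed under the fold required.

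Among the intracellular inhibitors, NKD1, NKD2 and AXIN2 fell in G2/SCR and AXIN1 was not called. NKD1 (chr16:50548330-50649249), which binds Dishevelled and is itself induced by Wnt, had 41.4, 54.7 and 50.5 in G2, 152, 124 and 98.2 in SCR, and 112 and 109 in WT. G2 was lowest and the controls overlapped. NKD1 fell by 1.32 (SE 0.205, adjusted p = 0.0002) in G2/SCR and by 1.17 (SE 0.229, adjusted p = 0.00105) in G2/WT. AXIN2 (chr17:65528563-65561648), the feedback scaffold of the destruction complex, had 309.6, 304 and 355 in G2, 489.9, 492 and 516 in SCR, and 458 and 579.8 in WT. Again all G2 libraries were below all controls. AXIN2 fell by 0.63 (SE 0.11, adjusted p = 0.000486) in G2/SCR and by 0.68 (SE 0.123, adjusted p = 0.000609) in G2/WT. Without WT replicate 2 the G2/WT value was -0.51, and with libraries scaled to the same total it was -0.49, neither called. NKD2 was low, at 11.3, 8.76 and 11.8 in G2, 34.7, 25.3 and 40.1 in SCR, and 28.6 and 15.9 in WT, and fell by 1.55 (SE 0.399, adjusted p = 0.00658) in G2/SCR, while its -0.95 in G2/WT was not called (adjusted p = 0.0934). AXIN1, the constitutive scaffold, had means of 1199, 1066 and 1163 with overlapping libraries. LGR5, named above as a target of the same branch, was higher in G2 in both comparisons. NKD1 overlaps an unnamed gene on the opposite strand.

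The 4 transcription factors summed to 517 ± 11.5 (SD, n = 3) normalized counts per kilobase in the G2 libraries, 556 ± 11.3 (SD, n = 3) in those of SCR and 525 ± 27.9 (SD, n = 2) in those of WT, and their shares moved. LEF1 made up 41.5% in G2, 55.0% in SCR and 43.8% in WT, and TCF7L2 24.6%, 14.7% and 20.6%. TCF7L2 (chr10:112950247-113167678) had 816, 929.6 and 826 in G2, 560.3, 516 and 578 in SCR, and 621 and 839.9 in WT. SCR was low, and G2 overlapped WT. TCF7L2 rose by 0.63 (SE 0.112, adjusted p = 0.000532) in G2/SCR, a call lost without G2 replicate 2 (0.57) and with libraries scaled to the same total (0.54). LEF1 had 1172, 1161 and 1121 in G2, 1624, 1698 and 1595 in SCR, and 1234 and 1224 in WT. Its value of -0.51 (SE 0.0634, adjusted p = 3.3e-05) in G2/SCR was under the fold required. TCF7L1 (chr2:85133392-85310387), mostly a repressor, had 354, 308 and 313 in G2, 309, 257 and 260.0 in SCR, and 138 and 162 in WT. It rose by 1.11 (SE 0.14, adjusted p = 3.44e-05) in G2/WT and by 0.87 (SE 0.14, adjusted p = 0.000558) in SCR/WT, so that WT was the line apart. TCF7 (chr5:134114681-134148236) had 966, 1062 and 1049.8 in G2, 1138, 1006 and 1063 in SCR, and 1528 and 1563 in WT. TCF7 fell by 0.59 (SE 0.0826, adjusted p = 8.13e-05) in G2/WT, close to the fold required, and the call was lost without G2 replicate 1 or WT replicate 2. LEF1, TCF7 and TCF7L2 overlap genes on the opposite strand, SKP1 in the case of TCF7.

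The 22 genes under the minimum were 10 ligands, 5 antagonists, 5 genes of the R-spondin branch and the receptors FZD5 and FZD10. Of these, 7 were at 0 in all 8 libraries, namely WNT1, WNT2, WNT8A, FZD5, RSPO3, FRZB and SFRP2. A count of 0 in a library allows a level of up to about 3 fragments, or 6.80 to 11.2 normalized counts. Besides WIF1, WNT10B was seen mainly in G2, with 16, 26.3 and 11.8 there and 0 to 5.29 in the 5 control libraries. WNT9A had 23.5, 9.85 and 7.52 in G2, 1.51 to 13.1 in SCR, and 1.24 and 0 in WT. WNT7A reached 16.9 in SCR and LGR6 11.9 in WT. The others (DKK4, FZD10, RNF43, RSPO1, RSPO2, SFRP5, WNT3A, WNT4, WNT7B and WNT9B) stayed at 9.82 or below in every library, levels at which no difference was detectable at this depth. WNT10B and its neighbour WNT1 lie 652 and 641 kb from PRPF40B on chromosome 12.

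The called genes were compared with the genes around them, taking as neighbours those that average at least 100 normalized counts and start within 5 Mb on the same chromosome. For 18 of the 19 genes called in G2/SCR, the median log2 fold change of the neighbours lay between -0.16 and 0.22, within the 25th to 75th percentiles of all genes of that level (-0.25 to 0.31). FZD6 was the exception, with a median of 0.59 over 27 neighbours in G2/SCR (85.2% of them above 0) and 0.64 in G2/WT. FZD6 itself was still higher, at 1.30 and 1.06. DKK2 and LEF1 lie 1011 kb apart on chromosome 4 and differed in direction in G2/SCR, at 2.57 and -0.51, with median neighbours at 0.15 and 0.12. WNT6 and WNT10A, both of low level, lie 6.29 kb apart on chromosome 2. WNT6 was called in SCR/WT (1.05, SE 0.332) and WNT10A was not (0.40, SE 0.49), but these errors do not separate the 2 values.

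**Figure D4:**
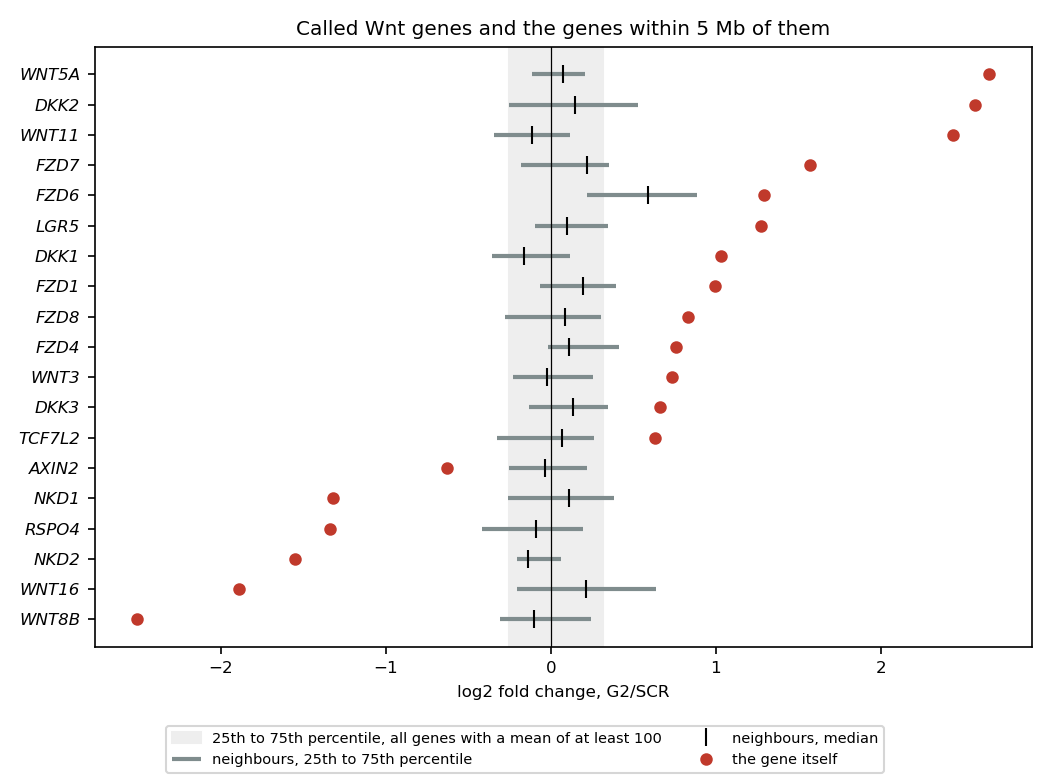
Log2 fold change in G2/SCR (horizontal axis) of the 19 called Wnt genes (red points) beside the median and the 25th to 75th percentiles of the genes within 5 Mb of each (black ticks and grey lines), over the 25th to 75th percentiles of all genes with a mean of at least 100 (light band). The neighbours of FZD6 have a median of 0.59, outside the band, and the other medians lie inside it.

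Other genes of the pathway were taken from 5 lists, drawn up with earlier results of these data known. Their counts stand beside the shares of all tested genes, of which 15.1% were called higher and 11.8% lower in G2/SCR, and 17.7% and 12.2% in G2/WT. Among 24 tested genes of secretion and extracellular control, 15 rose (62.5%) and 3 fell (12.5%) in G2/SCR, with a median log2 fold change of 0.86, and 14 rose and 3 fell in G2/WT. The share that fell was thus near that of all genes. TRABD2B, a protease that inactivates Wnt, rose most among those with a mean of at least 100 (4.41 in G2/SCR, SE 0.414, adjusted p = 2.81e-06). It had 261 ± 18.8 (SD, n = 3) counts in G2 against 12.1 ± 5.83 (SD, n = 3) for SCR and 0 in both WT libraries. Its mean over all libraries was 102, so it passed that minimum only through G2, and the minimum itself favoured a rise. DRAXIN, an axon guidance protein that binds LRP6, rose by 2.65 (SE 0.129, adjusted p = 8.04e-09) in G2/SCR and by 3.48 in G2/WT. SULF2, a sulfatase of heparan sulfate, fell by 1.93 (SE 0.135, adjusted p = 1.99e-07), and SOSTDC1, a BMP and Wnt antagonist, by 1.82 (SE 0.319, adjusted p = 0.000497) in G2/SCR. Both were also lower in G2/WT, by 0.94 and 1.61.

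Of 31 cytoplasmic transducers and destruction complex genes, 1 rose (3.23%) and 7 fell (22.6%) in G2/SCR with a median of -0.03, and 2 rose and 4 fell in G2/WT. AMER3 fell by 1.54 (SE 0.106, adjusted p = 1.74e-07) and TMEM198 by 1.45 (SE 0.116, adjusted p = 6.97e-07) in G2/SCR. The single rise was DACT1 (2.59), named after its value was seen, with a mean of 121 in G2 and 20.7 in SCR. CTNNB1, the beta-catenin gene, was at 17883 ± 489 (SD, n = 3) in the G2 libraries, 17382 ± 675 (SD, n = 3) in those of SCR and 16584 ± 357 (SD, n = 2) in those of WT, and was not called. Among 22 nuclear co-factors 0 rose and 1 fell in G2/SCR (HIC1, named likewise, -0.90), with a median of 0.02, and 1 rose and 0 fell in G2/WT. Among 26 genes of planar polarity and the non-canonical branch, 7 rose (26.9%) and 3 fell (11.5%) in G2/SCR and 9 rose and 3 fell in G2/WT, so the share that fell was again near that of all genes. The cadherin gene CELSR1 rose by 3.99 (SE 0.252, adjusted p = 8.28e-08) in G2/SCR, with 848 ± 54.2 (SD, n = 3) counts in G2 against 52.6 ± 5.62 (SD, n = 3) for SCR, whereas its relatives CELSR2 and CELSR3 fell by 0.77 and 0.70. PRICKLE1, a cytoplasmic polarity protein, rose by 1.41 (SE 0.0802, adjusted p = 3.21e-08).

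Target genes reported for the canonical branch formed the last list. Of 27 tested targets 12 rose (44.4%) and 4 fell (14.8%) in G2/SCR, beside the 15.1% and 11.8% of all tested genes, with a median of 0.39, and 14 rose and 5 fell in G2/WT, with a median of 0.59. GJA1, the gap junction protein connexin 43, was at 17985 ± 572 (SD, n = 3) in the G2 libraries, 1267 ± 21.3 (SD, n = 3) in those of SCR and 59.2 ± 18.8 (SD, n = 2) in those of WT, and rose by 3.83 (SE 0.125, adjusted p = 2.58e-10) in G2/SCR. EDN1, which encodes endothelin 1, rose by 3.83 (SE 0.611, adjusted p = 0.000244) in G2/SCR. The T-box factor gene TBX3 fell by 3.13 (SE 0.0545, adjusted p = 2.78e-12) in G2/SCR and by 2.59 in G2/WT, and MYC, a regulator of growth, fell by 1.95 (SE 0.0577, adjusted p = 1.38e-10) and 1.66. CD44, SNAI2, FOSL1 and TWIST1 of this list are also among the mesenchymal markers above, and NOTUM and APCDD1 are also in the extracellular list.

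**Figure D5:**
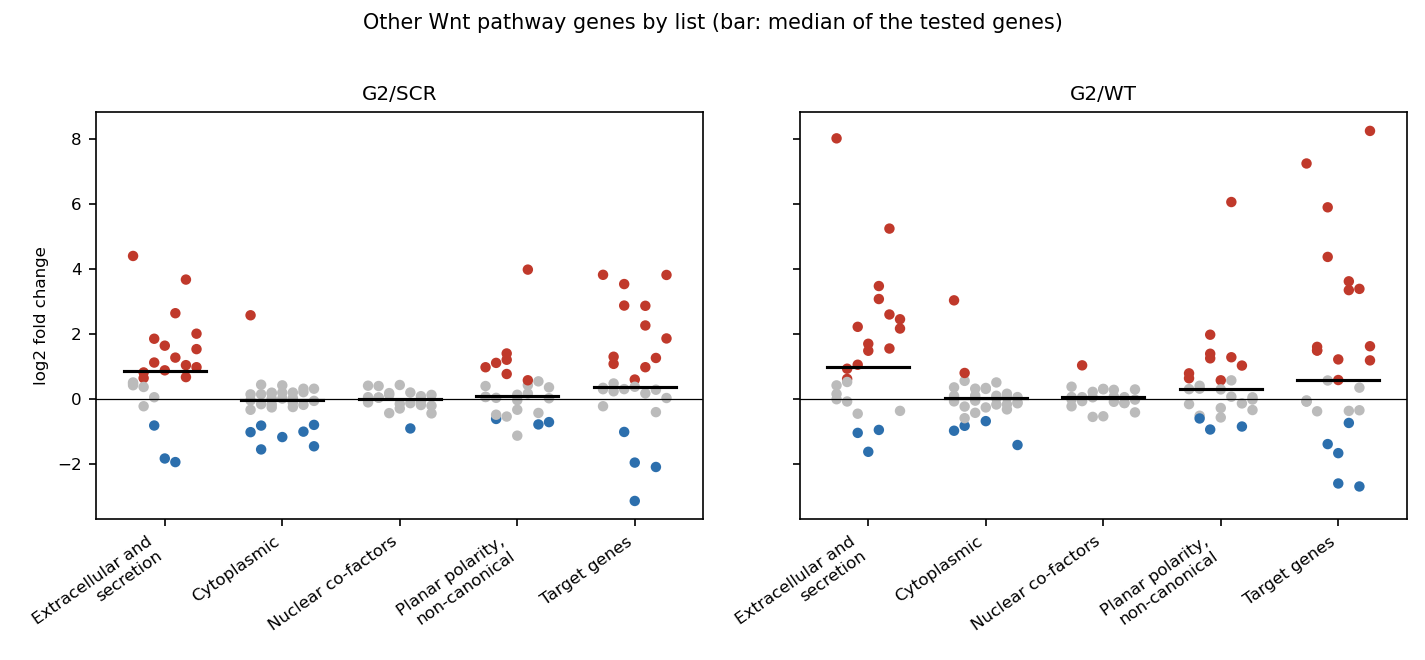
Log2 fold change (vertical axis) of the tested genes of each list of other pathway genes in G2/SCR and G2/WT, with a bar at the median of the list. Red points were called higher, blue points lower and grey points were not called. In G2/SCR 15 of 24 extracellular genes are red, and 23 of 31 cytoplasmic and 21 of 22 nuclear genes are grey.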

How the data were processed

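Polyadenylated RNA from 8 libraries (3 G2, 3 SCR, 2 WT) was sequenced as paired reads with a stranded Illumina kit. The authors used STAR on hg38, featureCounts (Subread 1.5.0) on FAST DB genes, and DESeq2 for normalization. The signal they deposited is a normalized count per gene and library, neither log scaled nor corrected for length. The strand setting and the treatment of reads that match several genes are not given in the sources used here. Each library's values were whole multiples of its own step (100% of values within 0.1), so the counts before scaling were recovered. This includes WT replicate 2, although its step of 0.993 is near 1. Recovered totals were 59804395 to 81080747. Most small counts (71.3 to 75.6%) were multiples of 3, so totals divided by 3, 19934798 to 27026916, were taken as fragments, and floors cover counting error only. All columns were assigned by their labels.

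The test was limma 3.58.1 in R 4.3.3 (lmFit, eBayes with a trend) on log2(normalized count + 1), with 1 coefficient for each line, over the 18947 genes averaging 10 or more normalized counts. Fold changes on this scale understate the change of low genes. Thresholds followed the study (fold change of at least 1.5, p of at most 0.05). The script was tested on simulated data. A line was at the floor when no library exceeded 9 recovered counts. Levels per kilobase used GENCODE 44 exon lengths, found for all 62 genes, and 99.7% of the 24653 genes whose symbol names a single GENCODE gene overlapped its locus. Promoters came from RefSeq.

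The Wnt genes, the pathway and marker lists and the tests were chosen with earlier results of these data known. All members are named or counted. Those called in a G2 comparison with a mean of at least 100 in a line are given in every library. From each list, up to 2 called genes of each direction in G2/SCR are given that average at least 100 over all 8 libraries. A gene can pass such a mean through G2 alone, which favours a rise. The other marker lists gave 1 rise and 1 fall of 4 Schwann cell genes and 1 rise of 1 endothelial gene tested in G2/SCR. Of all tested genes, 15.1% rose and 11.8% fell there. Alternatives were another pseudocount, no filter, same totals, TMM, fits of the compared lines alone, a fold of 2, adjusted p, blocks by replicate number, each library left out, and edgeR 4.0.16 and DESeq2 1.42.0 on recovered counts. The level of 1 marker gene is not reported here.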

Additional observations from a re-analysis of the deposited data

How the results depend on the processing

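The number of called Wnt genes ran from 12 to 22 in G2/SCR, 13 to 20 in G2/WT and 8 to 14 in SCR/WT over the alternatives, and the number that did not overlap between G2 and the controls from 19 to 24. With all libraries, 35% of the 40 lay above and 12.5% below all controls, beside 22.8% and 19.7% of all tested genes. Leaving a library out can only keep or raise such a number, for any set of genes. A fold change of at least 2 gave 12 in G2/SCR and 8 in SCR/WT, and PRPF40B, at -0.95 in G2/SCR, was then not called, as the stricter fold alone requires. Of 863 recomputed values for 48 effects of called Wnt genes, 809 kept their call and 54 lost it, 0 reversed, and 30 effects kept their call under every alternative run. WNT5A in SCR/WT lost its call in 10 of 16 alternatives, WNT6 in G2/WT in 8 of 17 and TCF7 in G2/WT in 6 of 17, and for these the cause was not tested. The 6 for TCF7 include edgeR on recovered counts, which was added for G2/WT and SCR/WT, and for G2/SCR on counts divided by 3, after seeing the data. No pairing by number was seen, as same-numbered libraries correlated in their deviations between -0.173 and 0.147 and differently numbered ones between -0.203 and 0.173. The deviations are from means of 2 or 3 libraries, so the 2 WT libraries mirror each other. This check therefore cannot exclude pairing. A replicate block gave 19, 16 and 12 called genes in G2/SCR, G2/WT and SCR/WT, and a replicate block by the number in the library name 19, 16 and 14, with PRPF40B at -0.95 and -0.99. Both blocks lost the calls of WNT6 in G2/WT and WNT5A in SCR/WT, and the latter block also lost AXIN2 in G2/SCR (-0.56) and WNT3 in SCR/WT (-0.63). Depth limits the ligands and the 22 untested genes, where a few fragments decide a value.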
